A study of Physcomitrium patens with 20 samples.

Results

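In wild-type protonema of the moss Physcomitrium patens, 13817 of 31967 gene rows averaged under 0.5 CPM (counts per 1000000 counts of the library), and 40 of these were transcribed in each of 3 mutants that lack DNA methyltransferases. The 40 genes were chosen by their measured levels. A gene was kept if its mean over the 3 wild-type libraries was under 0.5 CPM and if each of the 3 cmt, 3 met/dnmt3b and 3 cmt/dnmt3b libraries held at least 1 CPM, where CPM relates a count to the total of its library over all gene and TE (transposable element) rows. Low wild-type counts and high counts in those 9 libraries are therefore properties of the choice and are given as description, without a test. Levels in the dnmt3b, met and drm12 libraries took no part in the choice.

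Polyadenylated RNA was sequenced from protonema, the filamentous juvenile tissue of this moss, of cultivar Grandsen after 7 days of growth. The genotypes were cmt/dnmt3b and met/dnmt3b (each lacking a pair of methyltransferase genes), cmt, dnmt3b, met, drm12 (drm1drm2 in the design) and wild type (wt), with 3 libraries each except met with 2. No transgene, agent or further mutation is given in the labels, nor whether a genotype is 1 line or several, nor whether replicates were separate cultures, so the p-values below speak only of variation among these libraries, some or all of which may be technical. The labels give a batch per library. Batch 1 held the met and met/dnmt3b libraries and replicates 1 and 2 of cmt, drm12 and wt, and batch 2 held the dnmt3b and cmt/dnmt3b libraries and replicate 3 of cmt, drm12 and wt.

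Plant DNA is methylated at cytosines followed by G (CG) and in the contexts CHG and CHH, where H is any base but G, and dense methylation keeps TEs and some genes silent. MET copies CG methylation after replication, and CMT (a chromomethylase) maintains CHG methylation. DNMT3b places most CHH methylation in the heterochromatin of this moss. The DRM proteins are relatives of the plant methyltransferases that small RNAs guide. The deposited table names genes only by identifiers such as Pp3c8_8860, and none of the 40 identifiers, nor of the 31967, was found in the RefSeq gene table used here. No product, function or sequence is therefore given for any of the 40 genes, and the deleted methyltransferase genes could not be looked up as a check of the labels. CPM is not divided by gene length, so levels are compared between libraries of a gene and not between genes.

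Library totals ran from 14236575 to 21811993 counts. TEs held 2.94 to 3.60% of counts in cmt/dnmt3b, 0.308 to 0.45% in met/dnmt3b, 0.311 to 0.587% in cmt and 0.0561 to 0.109% in wt. Replicate 3 of drm12 stood apart from its group, with 0.27% of counts in TEs against 0.0874% and 0.0809% in replicates 1 and 2. Genes of chromosomes 16 and 10 were raised as a whole in cmt/dnmt3b, by a mean over its 3 libraries of 0.83 and 0.54 on the log2 scale (medians over 689 and 635 genes, the 40 genes left out). In wt replicate 3 the genes of chromosome 19 were raised by 0.92 (506 genes).

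Silent genes that came on in every library numbered 511 for cmt/dnmt3b, 211 for met/dnmt3b and 138 for cmt. The 40 genes common to the 3 lists made up 7.83% of the first, 19% of the second and 29% of the cmt list. A further 73 silent genes were on in every library of both double mutants but not in every cmt library, and 72 were on in every cmt and cmt/dnmt3b library but not in every met/dnmt3b library. Only 4 were on in every cmt and met/dnmt3b library and not in every cmt/dnmt3b library.

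The choice admitted genes at low levels. In 32 of the 40 genes the lowest of the 9 chosen-on libraries lay under 2 CPM, and in 8 it was 2 CPM or more. Just inside the 1 CPM limit were Pp3c13_15340, Pp3c3_1600 and Pp3c12_16500, with lowest libraries at 1.02, 1.05 and 1.06 CPM. Just outside were Pp3c6_3149, Pp3c21_8170 and Pp3c13_11460, at 0.998, 0.969 and 0.963 CPM. At the wild-type limit, Pp3c17_5610, Pp3c13_16300 and Pp3c10_11219 were inside with wt means of 0.492, 0.477 and 0.452 CPM, and Pp3c17_6440, Pp3c4_22330 and Pp3c10_6760 were outside with 0.504, 0.506 and 0.514 CPM. Of the 40 genes, 1 had 0 counts in every wt library, 4 had 1 to 3 wt counts in all and 35 had more. In 2 of them a single wt library reached 1 CPM or more.

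**Figure D1:**
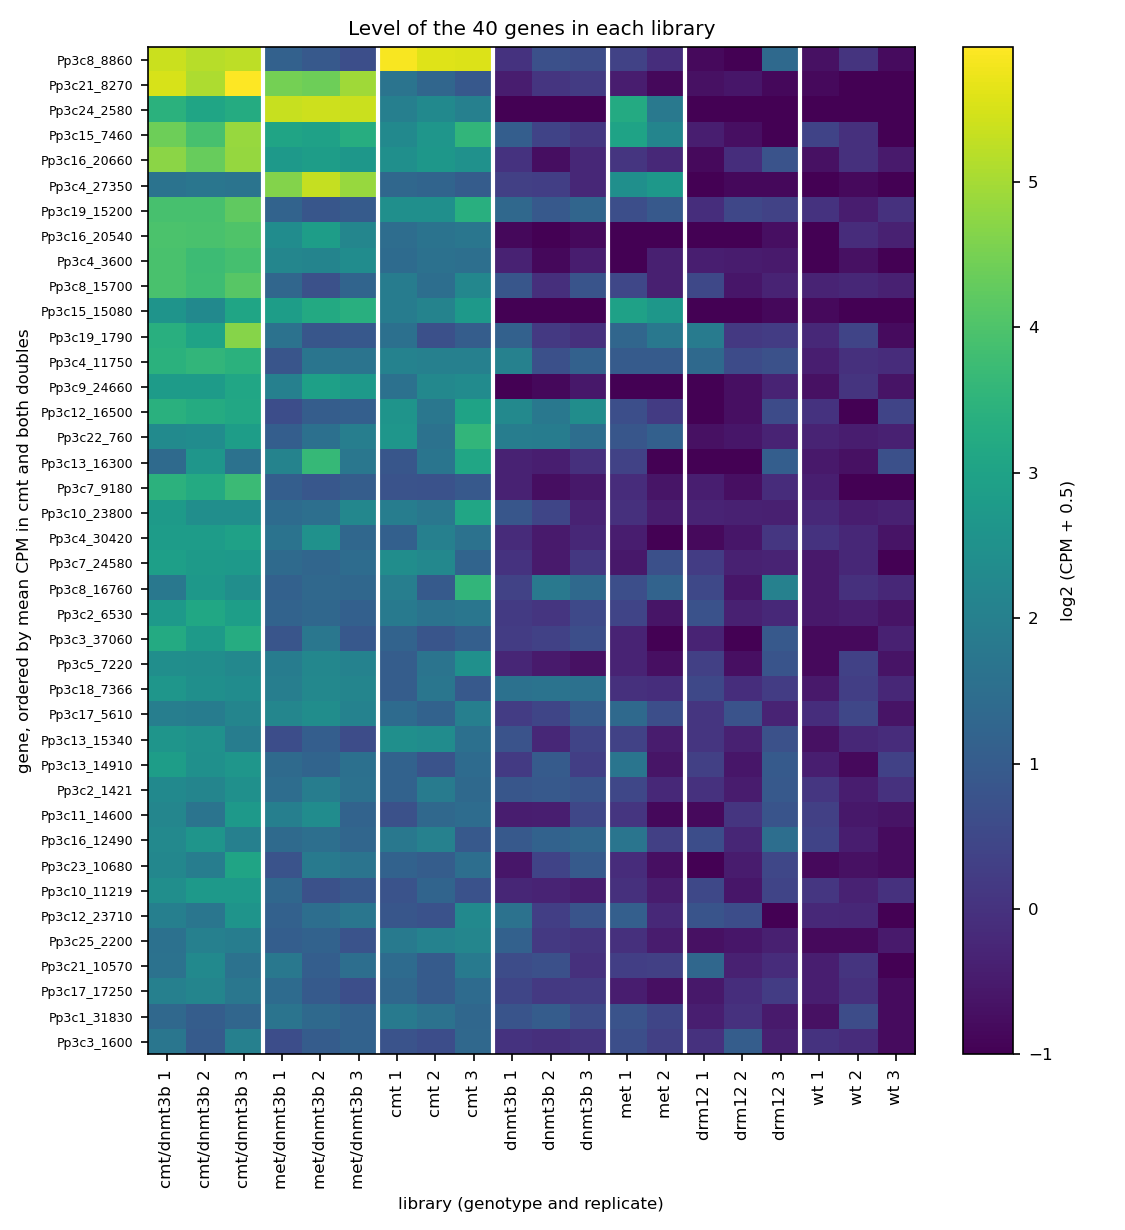
Level of each of the 40 genes (rows) in each of the 20 libraries (columns), as the log2 of CPM plus 0.5, with genotypes separated by white lines. The genes were chosen for high values in the cmt/dnmt3b, met/dnmt3b and cmt columns and low values in wt; the dnmt3b, met and drm12 columns, which the choice did not use, show a few bright rows, among them Pp3c24_2580, Pp3c15_15080 and Pp3c4_27350 in met.

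Among the 3 genotypes of the choice the 40 genes were mostly highest in cmt/dnmt3b. The mean was highest there for 30 genes, in met/dnmt3b for 5 and in cmt for 5. It was lowest in cmt for 24 genes, in met/dnmt3b for 14 and in cmt/dnmt3b for 2. These means carry no batch term. The double mutants were in different batches, so genotype and batch cannot be told apart between them. The median gene mean was 5.78 CPM in cmt/dnmt3b, 2.29 CPM in met/dnmt3b and 2.64 CPM in cmt, and gene means ran from 1.84 to 46.2, from 1.23 to 40.9 and from 1.26 to 50.5 CPM in these groups. It was 0.814 CPM in dnmt3b, 0.594 CPM in met, 0.552 CPM in drm12 and 0.30 CPM in wt. Replicates differed least in cmt/dnmt3b, where the highest library was 1.34 times the lowest in the median gene, against 1.55 times in met/dnmt3b and 1.89 times in cmt. The cmt libraries span both batches and levels were highest in cmt/dnmt3b, so these ratios do not compare spread alone.

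Summed over the 40 genes, the libraries held 367, 329 and 423 CPM in cmt/dnmt3b, 185, 225 and 207 CPM in met/dnmt3b, 165, 154 and 202 CPM in cmt, 41.8, 34.2 and 37.9 CPM in dnmt3b, 59.3 and 38.3 CPM in met, 21.5, 12.95 and 30.2 CPM in drm12, and 10.9, 13.4 and 8.92 CPM in wt. The cmt/dnmt3b libraries were above all others, the met/dnmt3b and cmt libraries overlapped, and the met and dnmt3b libraries overlapped each other and lay above every drm12 and wt library. The share of counts in TEs moved with this sum in replicate 3 of cmt and of drm12, the batch 2 library of each group, where both were the highest of their group. It did not in wt, whose batch 2 library, replicate 3, had the highest TE share of wt (0.109%) and the lowest sum (8.92 CPM). The part of TEs, batch or these libraries in the levels of the genes was not tested. In bulk RNA, more cells that transcribe a gene and more transcripts per cell cannot be told apart. The 4 genes with the highest mean CPM held 30.8% of the sum in cmt/dnmt3b, 36.3% in met/dnmt3b and 36.5% in cmt. Their share was 25.6% in met, against 6.29% in wt. Without them the sums averaged 258 ± 26.2 CPM in cmt/dnmt3b, 131 ± 21.1 CPM in met/dnmt3b and 110 ± 25.1 CPM in cmt, against 10.4 ± 1.8 CPM in wt (SD, n = 3 each).

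**Figure D2:**
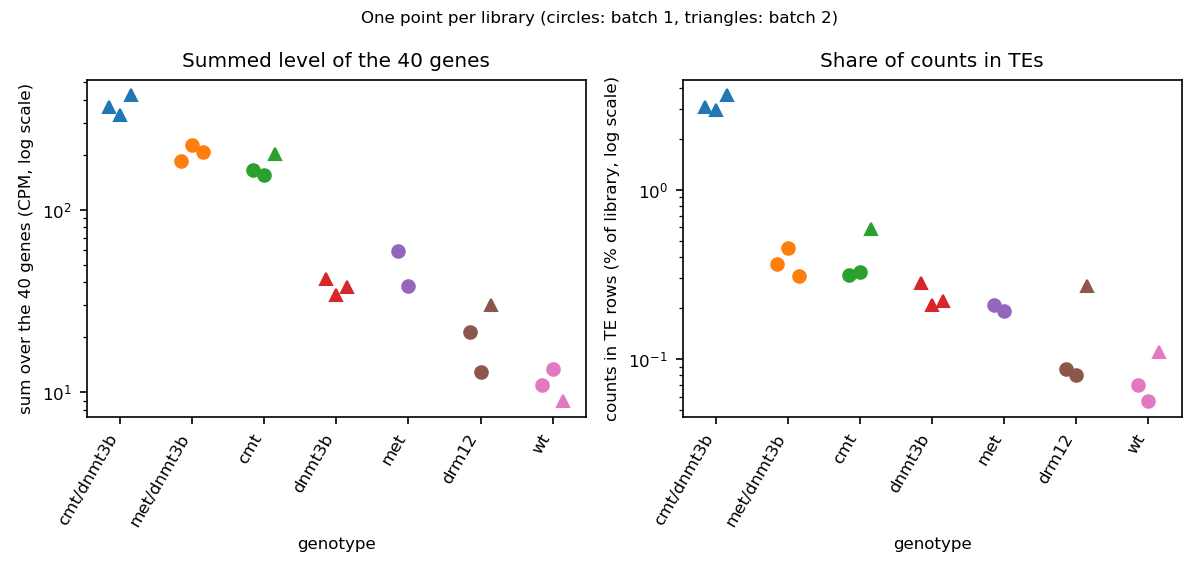
Summed level of the 40 genes in CPM (left) and percentage of counts in TE rows (right), both on log axes, with 1 point per library, circles for batch 1 and triangles for batch 2. On the left the 3 cmt/dnmt3b libraries (329 to 423 CPM) lie above every other library and the 3 wt libraries (8.92 to 13.4 CPM) include the lowest; on the right cmt/dnmt3b lies at 2.94 to 3.60%.

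The genes with the highest mean CPM showed several patterns. Pp3c8_8860 had 41.2, 36.1 and 37.6 CPM in cmt/dnmt3b and 57.5, 47.6 and 46.3 CPM in cmt, but only 1.73, 1.40 and 1.08 CPM in met/dnmt3b, against 0.126, 0.538 and 0.0702 CPM in wt. Its level was thus high wherever CMT was lost and just above the limit of the choice in met/dnmt3b. Pp3c21_8270 had 44.9, 33.3 and 60.4 CPM in cmt/dnmt3b, 21.6, 20.7 and 30.1 CPM in met/dnmt3b and 2.65, 1.94 and 1.38 CPM in cmt, against 1 count in the 3 wt libraries. Both double mutants lay far above cmt, without overlap.

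Pp3c24_2580 was the gene with 0 counts in wt, and it also had 0 counts in every dnmt3b and drm12 library. A count of 0 in these 9 libraries allows up to 0.152 to 0.211 CPM (3 counts of a library). It had 10.1, 7.88 and 9.18 CPM in cmt/dnmt3b, 40.1, 41.4 and 41.3 CPM in met/dnmt3b, 3.49, 4.38 and 3.53 CPM in cmt, and 8.94 and 3 CPM in met. Against 3 counts over the wt group it was at least 144-fold higher in cmt/dnmt3b, at least 640.5-fold higher in met/dnmt3b, at least 59.2-fold higher in cmt and at least 90.8-fold higher in met. The gene was thus detected in every library that lacked MET or CMT and in no other. Pp3c15_15080 was close to that pattern, with 5.54, 4.35 and 7.88 CPM in cmt/dnmt3b, 6.72, 8.72 and 9.79 CPM in met/dnmt3b, 3.25, 3.77 and 6.05 CPM in cmt and 7.26 and 5.84 CPM in met, against 0 counts in the 3 dnmt3b libraries and 1 count each over the drm12 and the wt libraries.

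The 4 genes with 1 to 3 wt counts give ratios to wt with wide 95% counting intervals (exact, covering counting error only). In cmt/dnmt3b the ratio was 2198 for Pp3c21_8270 (394 to 86840), 330 for Pp3c4_3600 (91 to 2728), 281 for Pp3c15_15080 (50.1 to 11140) and 126 for Pp3c4_27350 (22.2 to 5004). In met/dnmt3b it was 1471 for Pp3c4_27350 (264 to 58120), 1130 for Pp3c21_8270 (202 to 44660), 398 for Pp3c15_15080 (71 to 15750) and 97.6 for Pp3c4_3600 (26.7 to 811). In cmt it was 211 for Pp3c15_15080 (37.5 to 8364), 90.5 for Pp3c21_8270 (15.9 to 3608), 82.2 for Pp3c4_27350 (14.4 to 3280) and 55.2 for Pp3c4_3600 (15 to 460.7).

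**Figure D3:**
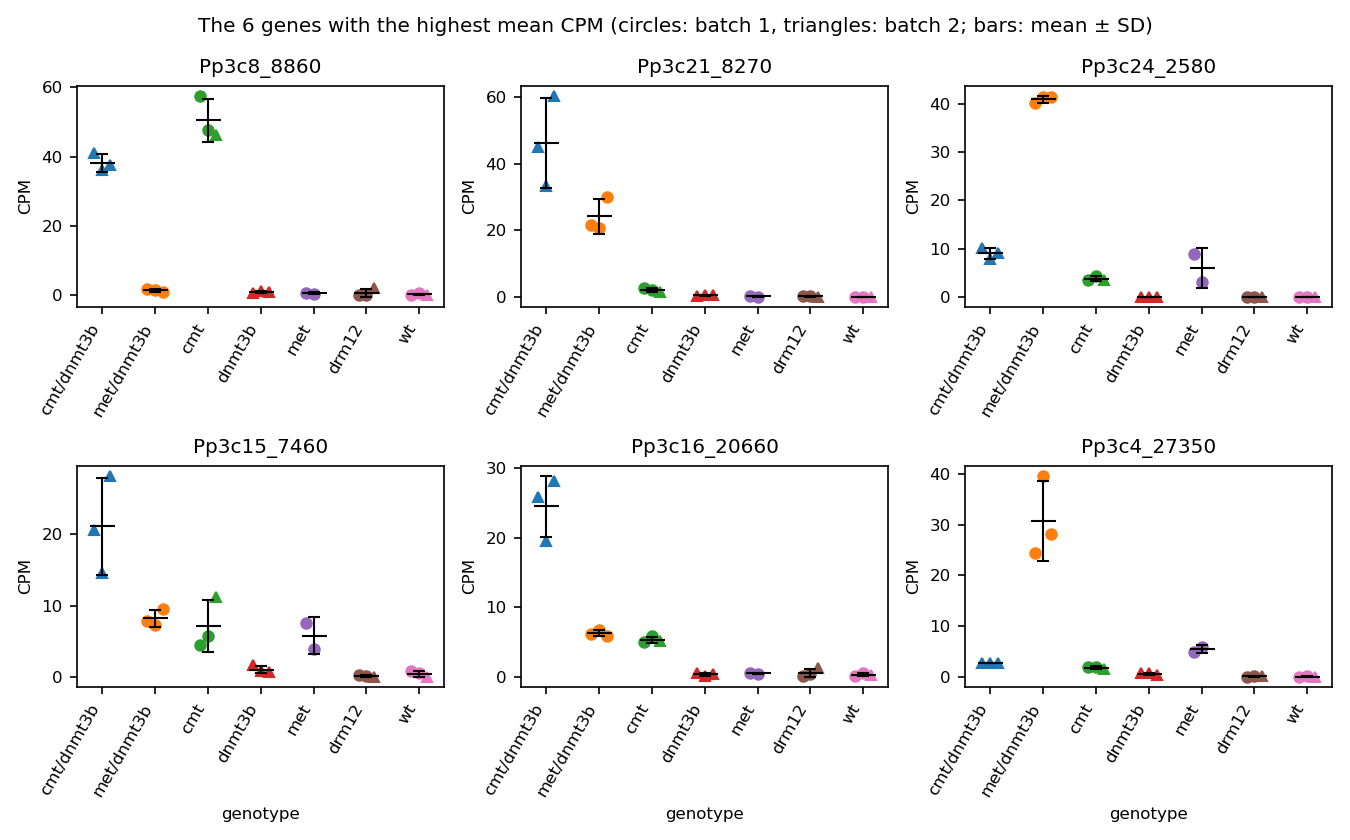
CPM of the 6 genes with the highest mean over cmt, met/dnmt3b and cmt/dnmt3b, with 1 point per library (circles for batch 1, triangles for batch 2) and the mean ± SD of each genotype in black. Pp3c8_8860 is high in cmt/dnmt3b and cmt, Pp3c24_2580 and Pp3c4_27350 in met/dnmt3b, and Pp3c21_8270, Pp3c15_7460 and Pp3c16_20660 in cmt/dnmt3b (means of 46.2, 21.1 and 24.5 CPM).

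All levels against wt are fixed by the choice. In edgeR's quasi-likelihood test across 26751 genes and TEs, 38 of the 40 genes were past an adjusted p of 0.05 in cmt/dnmt3b, 39 in met/dnmt3b and 35 in cmt, all of them higher, beside 26.5%, 17.2% and 4.92% of all features tested; none was lower, beside 10.8%, 3.23% and 1.6%. Nothing is read from these counts, since the choice used the same libraries. All 40 genes passed the low-count filter, which they had to through the 9 libraries of the choice.

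In met, which lacks MET alone, 5 of the 40 genes were higher, tested against both drm12, which the choice did not use, and wt, whose low mean it did. Pp3c4_27350 had 4.92 and 5.95 CPM in met, against 0, 0.0551 and 0.052 CPM in drm12 and 1 count in wt, and it was higher by 6.75 ± 0.55 (log2, SE; adjusted p = 7.24e-06) than in drm12. Pp3c24_2580 and Pp3c15_15080, described above, were higher in met than in drm12 with adjusted p = 0.000195 and 1.06e-05. Pp3c15_7460 had 7.62 and 3.92 CPM in met, against 0.246, 0.110 and 0 CPM in drm12 and 0.816, 0.478 and 0 CPM in wt (log2 difference from drm12 5.48 ± 0.83, adjusted p = 0.00367). Pp3c22_760 had 1.32 and 1.66 CPM in met, against 0.123, 0.165 and 0.312 CPM in drm12 and 0.314, 0.239 and 0.281 CPM in wt (3.18 ± 0.53, adjusted p = 0.00624). In each of the 5 both met libraries lay above every drm12 and every wt library. Such a separation from drm12 was common: it held in 7 of the 40 genes, 17.5% beside 12.6% of genes tested.

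Those 5 are 12.5% of the 40 genes, beside 0.333% of all features tested that were higher in met than in drm12. None of the 40 was lower than in drm12, beside 0.232% of features, and none by DESeq2's adjusted p; at an unadjusted p under 0.05, 1 was lower by edgeR and 1 by DESeq2. Against wt, with the same met libraries, the 5 were again higher, beside 0.579% of features. None was lower than in wt, beside 0.224%, and none by DESeq2's adjusted p, but 2 were with no low-count filter; at an unadjusted p under 0.05, 2 were lower by edgeR and 2 by DESeq2. Over the 40 genes the median log2 difference was 0.17 from drm12 and 1.33 from wt, against 0.08 and 0.14 over all features. The low wt mean required by the choice favours a positive difference from wt. The median from drm12 was -0.58 without met replicate 1 and -0.32 without drm12 replicate 2, and 0.32 to 0.57 without each of the other met and drm12 libraries, so its sign rests on single libraries. From wt it was 0.64 without met replicate 1. Within batch 1, which holds both met libraries, all 5 passed against drm12, and 4 of them against wt; Pp3c22_760 had an adjusted p of 0.0512 there. Without any 1 met or drm12 library the count against drm12 stayed at 5, while against wt it was 3 without wt replicate 2 or without met replicate 1. The calls against wt of Pp3c4_27350, Pp3c15_15080 and Pp3c24_2580 held in all 5 of those fits. By level, 10 of the 40 genes held at least 1 CPM in both met libraries, beside 0.304% of the silent genes, and 16 did without met replicate 2.

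In dnmt3b, which lacks DNMT3b alone, 6 of the 40 genes were higher than in drm12. Pp3c4_27350 had 0.740, 0.709 and 0.358 CPM in dnmt3b, against 0, 0.0551 and 0.052 CPM in drm12 (log2 difference 4.10 ± 0.69 SE, adjusted p = 0.0034). Pp3c22_760 had 3.36, 3.24 and 2.33 CPM in dnmt3b, against 0.123, 0.165 and 0.312 CPM in drm12 (3.29 ± 0.52, adjusted p = 0.00287). Both genes are also among those named for met; the met and dnmt3b comparisons use the same drm12 libraries. Pp3c18_7366 had 2.50, 2.63 and 2.51 CPM in dnmt3b, against 0.923, 0.441 and 0.676 CPM in drm12 and 0.188, 0.717 and 0.351 CPM in wt (2.17 ± 0.50 from drm12, adjusted p = 0.0198). Its met libraries, at 0.480 and 0.429 CPM, lay within the range of wt.

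Pp3c1_31830, Pp3c21_8270 and Pp3c12_16500 were the others, with means of 1.26 ± 0.252, 0.481 ± 0.225 and 3.98 ± 0.927 CPM in dnmt3b, against 0.317 ± 0.156, 0.114 ± 0.0573 and 0.366 ± 0.542 CPM in drm12 (SD, n = 3 each; adjusted p = 0.0289, 0.0279 and 0.0405). The 6 are 15% of the 40 genes, beside 0.628% of all features tested, and none was lower, beside 2.59%, nor by DESeq2's adjusted p, but 1 was with no low-count filter; at an unadjusted p under 0.05, 1 was lower by edgeR and 1 by DESeq2. Against wt, 5 were higher, 4 of them among the 6, and the added one was Pp3c4_11750 (2.14 ± 1.29 CPM in dnmt3b, against 0.383 ± 0.118 CPM in wt); the share among all features was 0.475%. None was lower than in wt, beside 0.684%, nor by DESeq2's adjusted p; at an unadjusted p under 0.05, 1 was lower by edgeR and 3 by DESeq2. The choice required a low wt mean, which favours levels above wt, so the count and median against wt are description. The median log2 difference over the 40 genes was 0.47 from drm12 and 1.25 from wt, against 0.05 and 0.12 over all features. Within batch 2 these medians were 0.02 and 2.25, and the one from drm12 was 0.20 without drm12 replicate 2 and 0.25 without dnmt3b replicate 1.

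Single libraries carried part of these calls. Against drm12 the count was 3, 3 and 2 without dnmt3b replicates 1, 2 and 3 in turn and 3 without drm12 replicate 3. Against wt it was 2 without wt replicate 3, 2 without dnmt3b replicate 1 and 3 without dnmt3b replicate 3. The call of Pp3c4_27350 held in each of these fits, with a largest adjusted p of 0.0302 against drm12 and 0.0344 against wt. The call of Pp3c22_760 against drm12 was lost without drm12 replicate 3 alone (adjusted p = 0.0657). All dnmt3b libraries are in batch 2, where drm12 and wt have 1 library each. Within it the 6 genes called against drm12 and the 5 called against wt kept their direction. Within that batch, however, the log2 difference from the 1 drm12 library was positive in only 20 of the 40 genes. It was negative in others, among them Pp3c5_7220 (-2.48), Pp3c13_16300 (-2.27), Pp3c16_20660 (-1.92) and Pp3c8_8860 (-1.25). By level, 8 of the 40 genes held at least 1 CPM in every dnmt3b library, beside 0.507% of the silent genes. Every dnmt3b library lay above every drm12 library in 9 of the 40 genes, 22.5% beside 14.2% of genes tested.

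In drm12 none of the 40 genes differed from wt, by edgeR's quasi-likelihood test or by DESeq2. At an unadjusted p under 0.05, edgeR had 6 higher and 1 lower and DESeq2 had 8 higher and 2 lower, and the smallest adjusted p by edgeR was 0.955. Of all features, 0.0262% were higher and 0.0112% lower in drm12. The choice required a low wt mean, which favours a positive difference from wt, so the median is given as description. The median log2 difference over the 40 genes was 0.68, against 0.02 over all features. It was 0.29 without drm12 replicate 3, 0.41 without wt replicate 3 and 1.25 without wt replicate 2, and 0.21 within batch 1 and 1.46 within batch 2. Replicate 3, which had more TE counts, was the highest drm12 library for 21 of the genes. Batch 2 has 1 library of each group and so no spread within either. Among the genes higher in drm12 there, Pp3c8_8860 and Pp3c16_12490 had 2.08 and 2.34 CPM, against 0.0702 CPM each in wt replicate 3. No gene of the 40 held 1 CPM in every drm12 library, beside 0.0145% of silent genes; 2 did without replicate 2 and 1 without replicate 3.

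**Figure D4:**
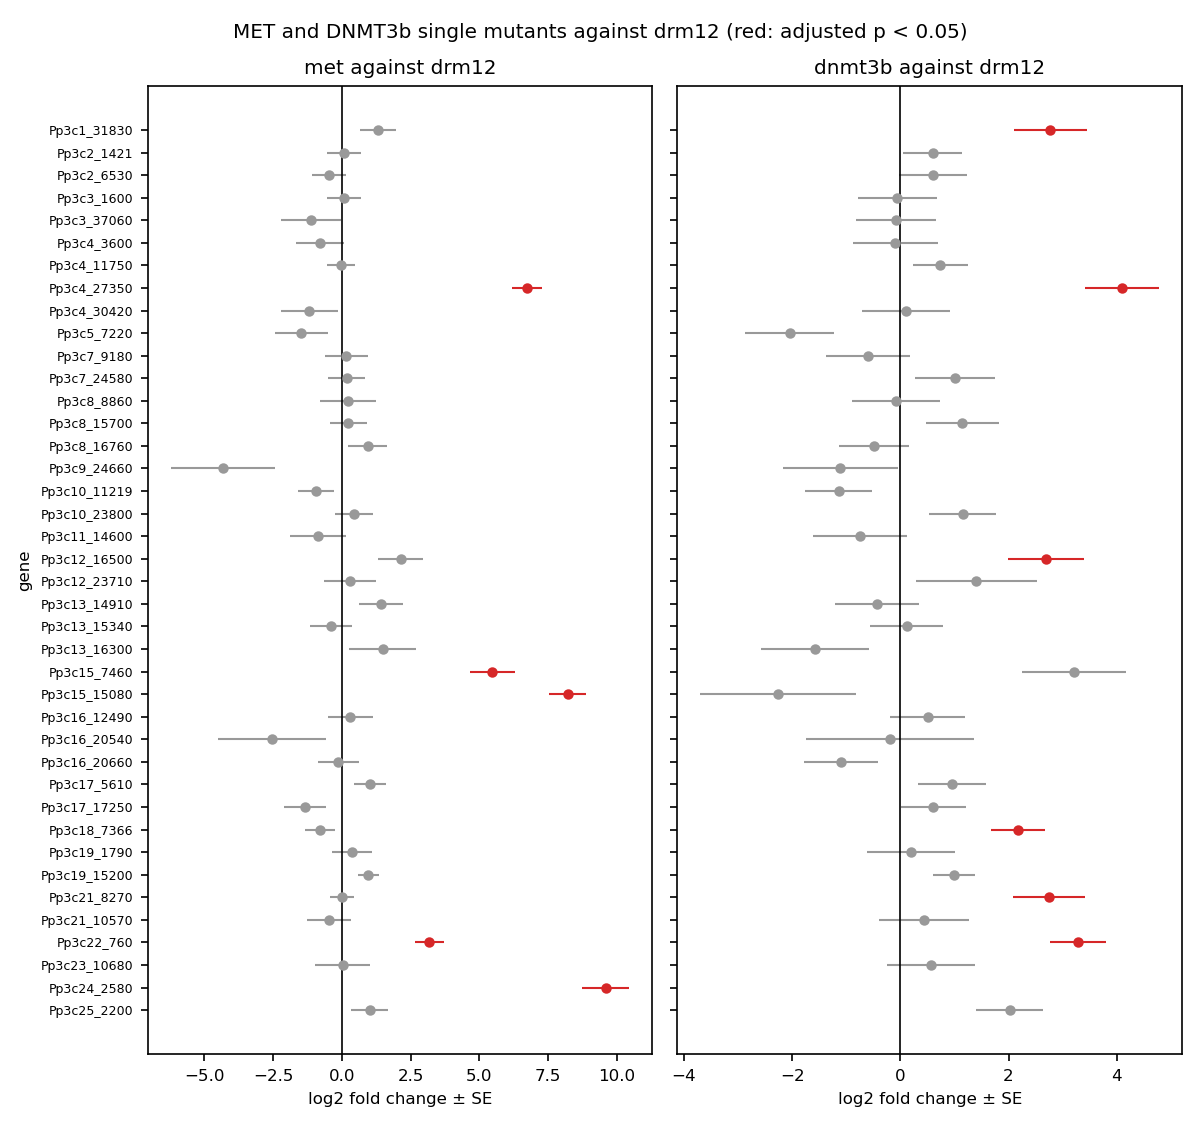
Log2 fold change ± SE of each of the 40 genes in met (left) and dnmt3b (right) against drm12, genotypes that the choice of genes did not use; red marks an adjusted p under 0.05. The 5 red genes on the left and 6 on the right all lie to the right of 0, and Pp3c4_27350 and Pp3c22_760 are red in both panels, which share the drm12 libraries; Pp3c24_2580, at 0 counts in dnmt3b and drm12, is not drawn on the right.

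Each double mutant was compared with cmt to see how far the level of these genes differs once DNMT3b is also lost, or once MET and DNMT3b are lost in place of CMT. The choice set the same floor of 1 CPM on the 3 genotypes and does not fix which is higher. In cmt/dnmt3b, 9 of the 40 genes were higher than in cmt and none was lower (0 lower by DESeq2's adjusted p; at an unadjusted p under 0.05, 3 lower by edgeR and 2 by DESeq2). Pp3c21_8270 was higher by 4.89 ± 0.53 (log2, SE; adjusted p = 2.77e-05), a ratio of mean CPM of 23.2. Pp3c19_1790 had 9.89, 7.68 and 25.1 CPM in cmt/dnmt3b, against 2.47, 1.11 and 1.56 CPM in cmt (3.44 ± 0.77, adjusted p = 0.005). Pp3c7_9180 had 10.5, 8.97 and 12.7 CPM in cmt/dnmt3b, against 1.20, 1.16 and 1.42 CPM in cmt (2.60 ± 0.65, adjusted p = 0.00868).

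Pp3c4_3600 had 14.7, 13.0 and 14.2 CPM in cmt/dnmt3b, against 2.17, 2.49 and 2.38 CPM in cmt (2.39 ± 0.61, adjusted p = 0.0096). Pp3c7_9180 and Pp3c4_3600 stayed under 0.5 CPM in every dnmt3b library, so that their gain over cmt far exceeded their level with DNMT3b loss alone. Pp3c16_20540 had 15.1, 14.9 and 15.6 CPM in cmt/dnmt3b, against 2.29, 2.60 and 2.80 CPM in cmt (2.01 ± 0.66, adjusted p = 0.0355); it lies on chromosome 16, raised as a whole in cmt/dnmt3b, and the part of that rise in its level was not tested. The others were Pp3c8_15700, Pp3c10_11219, Pp3c18_7366 and Pp3c4_11750, with log2 differences between 1.36 and 1.93 and adjusted p of 0.0204, 0.0463, 0.0444 and 0.0497. Of these, Pp3c10_11219 lies on chromosome 10, also raised as a whole in cmt/dnmt3b, and the part of that rise was not tested.

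The 9 genes are 22.5% of the 40, beside 17.8% of all features tested, TEs included, and 5.27% of genes alone. The 0 lower stand beside 6.3% of all features. With the 7 genes of chromosomes 10, 16 and 19 left aside, 6 of 33 were higher, a share near the 17.8% of all features. Shares of features or genes without those chromosomes were not computed, so this count is a description. The median log2 difference over the 40 genes was 0.57, against -0.03 over all features and -0.22 over genes. Scaling on genes alone moved these medians to 0.75, 0.16 and -0.02 and left the 9 calls at 9. Every cmt/dnmt3b library lay above every cmt library in 25 of the 40 genes, 62.5% beside 23.2% of genes tested, and below in 1, beside 11% of genes. Without any 1 of the cmt/dnmt3b libraries 5 genes were called higher, and without cmt replicate 2 there was 1 gene called lower. Pp3c21_8270 and Pp3c19_1790 passed without any 1 of the 6 libraries, while the other 7 lost the call without cmt replicate 3, when 6 genes in all were called higher. Within batch 2, where cmt has replicate 3 alone, the 9 called genes kept their direction. The log2 difference there was positive in 28 of the 40 genes, with a median of 0.73, against 0.10 over all features. Among the genes lower there, Pp3c8_16760 had 2.92, 5.98 and 4.87 CPM in cmt/dnmt3b, against 11.3 CPM in cmt replicate 3. Pp3c22_760 had 4.45, 4.62 and 6.80 CPM, against 11.2 CPM.

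Replicate 3 is the only cmt library in the batch of cmt/dnmt3b. It was above replicates 1 and 2 in 22 of the 40 genes, below both in 9 and between them in 9. In 4 it was over 2 times the higher of the others. Pp3c8_16760 had 3.43, 1.44 and 11.3 CPM in cmt replicates 1 to 3, Pp3c13_16300 had 1.32, 2.71 and 8.02 CPM, Pp3c10_23800 had 3.31, 2.88 and 8.02 CPM, and Pp3c12_23710 had 1.32, 1.16 and 4.36 CPM. These 4 were named after their values were seen, and none of them is among the 9 called.

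In met/dnmt3b, 4 of the 40 genes were higher than in cmt and 3 were lower. Pp3c4_27350 had 24.5, 39.7 and 28.2 CPM in met/dnmt3b, against 1.98, 1.83 and 1.51 CPM in cmt (log2 difference 4.02 ± 0.39 SE, adjusted p = 3.94e-06). Pp3c21_8270 and Pp3c24_2580 were higher by 3.38 ± 0.39 and 3.38 ± 0.44 (adjusted p = 2.36e-05 and 0.000338), and Pp3c15_15080 by 1.26 ± 0.40 (adjusted p = 0.0369). Of these 4, all but Pp3c21_8270 were also among the genes raised in met alone. Pp3c8_8860 was lower in met/dnmt3b than in cmt by 4.90 on the log2 scale (a log2 difference of -4.90 ± 0.70, adjusted p = 0.000155). Pp3c19_15200 had 1.80, 1.29 and 1.5 CPM in met/dnmt3b, against 4.93, 4.93 and 9.81 CPM in cmt (-1.78 ± 0.32, adjusted p = 0.00111), and Pp3c13_15340 had 1.06, 1.61 and 1.02 CPM, against 4.99, 4.71 and 2.43 CPM in cmt (-1.63 ± 0.55, adjusted p = 0.0471).

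The shares, 10% higher and 7.5% lower, stand beside 12% and 6.82% of all features tested, and beside 5.68% and 7.43% of genes. Groups did not overlap in 9 genes with met/dnmt3b higher and in 8 with it lower, 22.5% and 20%, beside 16.8% and 19.2% of genes tested. As a list, the 40 genes were thus near the background of this comparison, with a median log2 difference of 0.18, against 0.10 over all features, and the calls describe single genes. The median was 0.04 by DESeq2, 0.01 without cmt replicate 1, 0.12 without cmt replicate 2 and 0.06 without met/dnmt3b replicate 1. Within batch 1, which holds all met/dnmt3b libraries and cmt replicates 1 and 2, all 7 calls were repeated. Pp3c21_8270, Pp3c24_2580, Pp3c4_27350, Pp3c8_8860 and Pp3c19_15200 passed without any 1 of the 6 libraries, while Pp3c15_15080 and Pp3c13_15340 each passed in only 1 of those 6 fits.

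Between the double mutants, 6 of the 40 genes were higher in cmt/dnmt3b than in met/dnmt3b and 2 were lower. Pp3c19_15200 had 14.6, 14.6 and 18.3 CPM in cmt/dnmt3b, against 1.80, 1.29 and 1.5 CPM in met/dnmt3b (log2 difference 2.41 ± 0.42 SE, adjusted p = 0.00259). Pp3c8_15700 had 14.8, 13.1 and 16.9 CPM in cmt/dnmt3b, against 1.93, 1.13 and 1.86 CPM in met/dnmt3b (2.85 ± 0.70, adjusted p = 0.0199). Pp3c19_1790 and Pp3c8_8860 were higher by 3.76 ± 0.91 and 3.47 ± 1.01 (adjusted p = 0.0186 and 0.0458), and Pp3c7_24580 and Pp3c4_11750 by 2.62 ± 0.75 and 2.07 ± 0.57 (adjusted p = 0.0419 and 0.0367). Pp3c4_27350 had 2.62, 2.79 and 2.66 CPM in cmt/dnmt3b, against 24.5, 39.7 and 28.2 CPM in met/dnmt3b (-3.45 ± 0.55, adjusted p = 0.00148).

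The other lower gene, Pp3c13_16300, had 2.13, 5.78 and 2.55 CPM in cmt/dnmt3b, against 3.79, 11.9 and 2.88 CPM in met/dnmt3b, groups that overlap. Its log2 difference of -4.11 ± 1.05 (adjusted p = 0.0249) includes a batch term of 2.94, estimated from libraries that differ widely in this gene. Pp3c24_2580, whose mean CPM in cmt/dnmt3b was 0.222 times that in met/dnmt3b, had an adjusted p of 0.0504. The 6 and 2 genes are 15% and 5% of the 40, beside 3.29% and 3.27% of all features. Groups did not overlap in 29 genes with cmt/dnmt3b higher, 72.5% beside 37.9% of genes tested, and in 2 with it lower, 5% beside 18.2%. These overlap counts use CPM with no batch term, so genotype and batch cannot be told apart in them.

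The double mutants were in different batches, so no within-batch value exists. The tests between them rest on the batch term estimated from cmt, drm12 and wt, in which these genes have few counts outside cmt. Without cmt/dnmt3b replicates 1, 2 and 3 the count of higher genes was 3, 3 and 2, and without met/dnmt3b replicates 1 and 3 it was 3 and 2. The count of lower genes was 1 without cmt/dnmt3b replicate 1 or 3 or met/dnmt3b replicate 2. The calls of Pp3c19_15200, Pp3c8_15700 and Pp3c4_27350 held without any 1 of the 6 libraries, and those of Pp3c8_8860 and Pp3c7_24580 were lost without each of them. Of the 40 genes, 23 differed in none of the comparisons among cmt/dnmt3b, met/dnmt3b and cmt at the threshold, which does not show that their levels were equal.

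**Figure D5:**
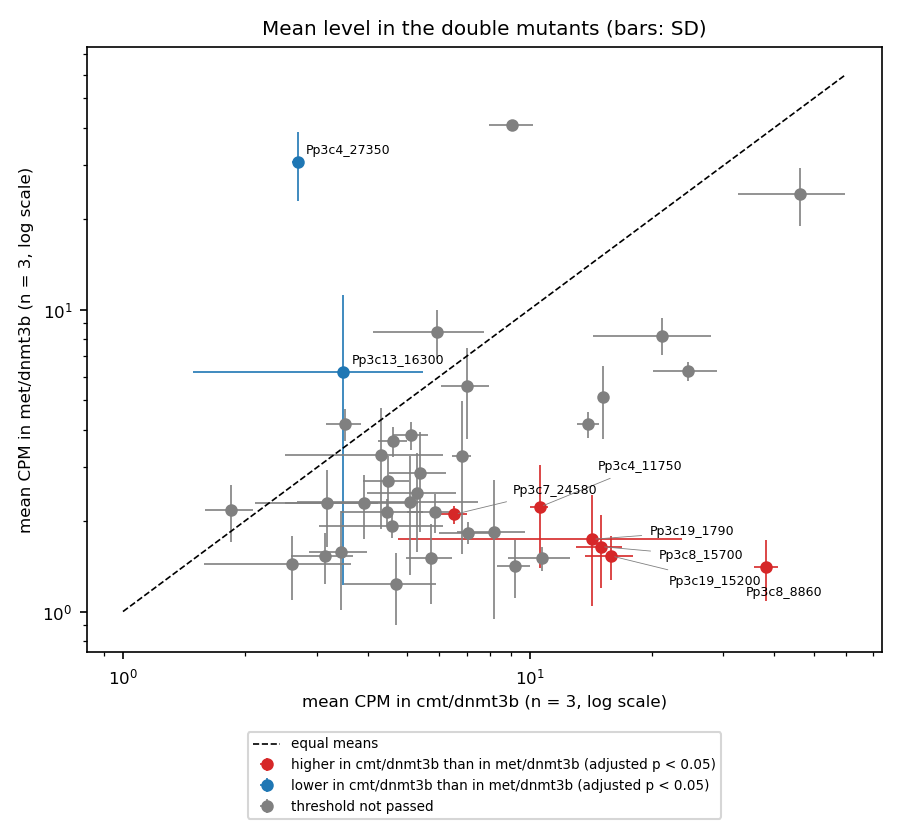
Mean CPM of the 40 genes in cmt/dnmt3b (horizontal) and met/dnmt3b (vertical), on log axes, with bars of 1 SD (n = 3 libraries each) and a dashed line of equal means. Most genes lie below the line, toward cmt/dnmt3b. The means carry no batch term, and the double mutants were in different batches. Red marks the 6 genes higher in cmt/dnmt3b and blue the 2 lower (adjusted p under 0.05).

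Levels in the double mutants were set beside the sum of the single mutants' gains in CPM (the mean of each single mutant, less wt once). The cmt/dnmt3b mean exceeded cmt plus dnmt3b less wt in 34 of the 40 genes, and the met/dnmt3b mean exceeded met plus dnmt3b less wt in 33; 29 genes exceeded both. The floor of 1 CPM set on the double mutants but not on met and dnmt3b favours such an excess, so the counts are a description. The ratio was 18.9 for Pp3c21_8270 in cmt/dnmt3b, with a mean of 46.2 CPM against a sum of 2.45 CPM, and 39.8 in met/dnmt3b, with 24.1 CPM against 0.607 CPM. For Pp3c24_2580 the ratios were 2.39 and 6.85.

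In 13 genes every met and dnmt3b library was under 1 CPM, and in 7 every one was under 0.5 CPM. Pp3c16_20540 had 4.66, 6.68 and 4.03 CPM in met/dnmt3b, against 0 counts in both met libraries and 0.0569, 0 and 0.0597 CPM in dnmt3b. Pp3c9_24660 had 3.53, 7.16 and 6.07 CPM in met/dnmt3b, against 0 counts in both met libraries and 0, 0.0506 and 0.179 CPM in dnmt3b. In both genes the met/dnmt3b libraries thus lay above those of each of its single mutants, which were near or at 0. The choice required at least 1 CPM in met/dnmt3b but not in met or dnmt3b. The wt means of these genes were 0.233 CPM (Pp3c16_20540) and 0.268 CPM (Pp3c9_24660), above the mean of each single mutant, met and dnmt3b. Their cmt libraries held 2.29, 2.60 and 2.80 CPM (Pp3c16_20540) and 2.53, 4.21 and 4.58 CPM (Pp3c9_24660). At the other end, the cmt/dnmt3b mean was at or below the sum in 6 genes, among them Pp3c8_8860 (38.3 CPM in cmt/dnmt3b against 51.1 CPM for the sum) and Pp3c22_760 (5.29 CPM against 9.20 CPM).

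The 40 genes were spread over the genome. By the chromosome number in their identifiers, a convention not checked against an annotation, they lay on 22 of 27 chromosomes, with 4 on chromosome 4 (10% of the 40, beside 4.73% of genes), 3 each on chromosomes 8, 13 and 16, and none on chromosomes 6, 14, 20, 26 and 27. No pair was adjacent in the order of identifiers. The closest pair was Pp3c16_20540 and Pp3c16_20660, with 2 genes between them that had 0 counts in all 20 libraries. Both were highest in cmt/dnmt3b, at 15.2 ± 0.355 and 24.5 ± 4.42 CPM, followed by met/dnmt3b at 5.12 ± 1.38 and 6.25 ± 0.454 CPM and cmt at 2.56 ± 0.258 and 5.33 ± 0.432 CPM, against 0.233 ± 0.213 and 0.271 ± 0.184 CPM in wt (SD, n = 3 each). Chromosome 16 was raised as a whole in cmt/dnmt3b, and the part of that rise in these levels was not tested. The next closest members, on chromosome 13, had 26 genes between them.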

How the data were processed

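The authors deposited 1 table of raw counts per gene and TE for 20 libraries, with 31967 gene rows and 241351 TE rows; no row lacked an identifier. The submitters' processing notes name STAR 2.7.0f, Trim Galore 0.6.0 and cutadapt 1.15. Not given in the sources used here were the counter, build, annotation, strand setting and treatment of multi-mapped reads, so counts of genes with close copies or overlapping TEs are uncertain. Members and lists were chosen with earlier results of these data known. Differences are from edgeR 4.0.16 (R 4.3.3), with genotype and batch as terms over all libraries, TMM factors over genes and TEs, the low-count filter by group (minimum count 10, total 15; 20149 genes and 6602 TEs) and Benjamini-Hochberg adjustment at 0.05. SE is the log2 fold change over the square root of F. The fit was tested on simulated data. DESeq2 1.42.0 and other settings were alternatives. Replicate pairs differed by a chi-square per degree of freedom of at least 7.32, so none was taken for a repeat. Genes were named by a fixed rule: the 10 highest mean CPM, called genes by p or size, no or few wt counts, both sides of each limit, and neighbours. Pp3c9_24660, Pp3c16_12490, Pp3c5_7220 and the 4 genes high in cmt replicate 3 were named after their values were seen. Intervals (95%) and floors (3 counts) cover counting error only.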

Additional observations from a re-analysis of the deposited data

How the results depend on the processing

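Of 98 values recomputed with other settings, among them fits within a single batch, 79 stayed within 1.5 times the reported one. The 40 genes became 14 with a wt mean under 0.25 CPM, 21 with every wt library under 0.5 CPM and 8 with at least 2 CPM in the 9 libraries, and 40 to 46 without any 1 library. Leaving out 1 of the 9 libraries can only keep or raise the number. With no low-count filter the higher counts were 9 in met and 10 in dnmt3b against wt, and 3 genes were lower in cmt/dnmt3b than in cmt, 2 in met than in wt and 1 in dnmt3b than in drm12. DESeq2 called 9 higher in dnmt3b than in wt. With no batch term 8 were higher in dnmt3b than in wt and 12 in cmt/dnmt3b than in met/dnmt3b. With p-values adjusted over genes alone 5 were higher in cmt/dnmt3b than in cmt. Within batch 2 only 1 library each of drm12, wt and cmt remained. The median log2 difference there was 1.46 in drm12 from wt, 0.02 in dnmt3b from drm12 and 0.73 in cmt/dnmt3b from cmt. Some counts of called genes also moved there, and with 1 library in a group they are not read. At 2 CPM or more in every library there were 4 genes in met and 3 in dnmt3b. The causes were not tested.

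Same-numbered libraries share no source in the labels. Among the comparisons tested here, the deviations of every same-numbered pair correlated positively only in dnmt3b and drm12. There the correlations were 0.72, 0.004 and 0.457 for replicates 1, 2 and 3, that of replicate 2 being near 0. With replicate number added as a block, 2 genes were higher in dnmt3b than in wt, 3 in dnmt3b than in drm12, 5 in cmt/dnmt3b than in cmt, and 3 higher and 1 lower in cmt/dnmt3b than in met/dnmt3b; other counts moved by 1.5 times or less. In cmt and wt every same-numbered pair correlated (0.36 to 0.52); the block there called 33 of the 40 genes, against 35.

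Leaving out 1 library gave 3 to 5 genes higher in met and 2 to 5 in dnmt3b than in wt, 0 in drm12, 5 in met and 2 to 7 in dnmt3b than in drm12, 5 to 8 higher and 0 to 1 lower in cmt/dnmt3b than in cmt, 3 to 4 higher and 2 to 4 lower in met/dnmt3b than in cmt, and 2 to 4 higher and 1 to 2 lower in cmt/dnmt3b than in met/dnmt3b. Genes at 1 CPM in every remaining library numbered 11 to 16 in met, 9 to 10 in dnmt3b and 0 to 2 in drm12. Leaving out a library can only keep or raise these numbers. A library with 0 counts allows up to 0.138 to 0.211 CPM, so levels near the wt means rest on few counts.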
